A study of Mus musculus with 91 samples.

Results

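Surface CD51, the alpha V integrin chain, was recorded on every index-sorted mouse marrow stromal cell of this series but was not used to gate the cells. Cells of the VCAM1+CD61+ and VCAM1+CD61- gates were therefore selected on the recorded area intensity of the CD51 channel, the measured value that chose the members: cells at 400 linear units or more are called CD51-high, and cells under 400 CD51-low. The split covered 79 of the 91 deposited cells, with 25 CD51-high and 54 CD51-low cells. The CD61+ gate held 16 high and 23 low cells, a CD51-high share of 41.0%, and the CD61- gate held 9 high and 31 low cells, a share of 22.5%. The remaining 12 cells were 9 cells of a VCAM1+ gate not split on CD61 and 3 cells whose title and gate label disagree. All cells came from crushed bones of C57BL/6 mice with no treatment, age or sex in the labels, and all were gated as CD45-, Ter119-, CD41- and CD71- and positive for a Vibrant dye, which was used to leave out debris. Each cell was sorted into a well of a 96-well plate and made into a full-length Smart-seq2 library. The labels name no animal, so each class of cells counts as 1 sample. No p-value is given anywhere, the spread over cells describes these cells only, and intervals cover the counting of cells only. Smart-seq2 reads are not independent molecules, and no interval is given for a ratio of reads.

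Integrins are paired receptors of an alpha and a beta chain that anchor cells to matrix. The alpha V chain pairs with beta 1, 3, 5, 6 or 8, and several of these pairs bind matrix proteins through an RGD motif, among them osteopontin, bone sialoprotein, fibronectin and vitronectin, and release TGF-beta from its latent form. CD51 is used as a sorting marker of mouse marrow stroma, where it has been applied to enrich mesenchymal progenitors, and the pair of CD51 with CD61 (beta 3) is the vitronectin receptor of osteoclasts. In marrow the VCAM1+ non-hematopoietic cells include the CXCL12-abundant reticular (CAR) cells, which supply CXCL12 and stem cell factor to blood stem cells and express adipogenic genes, and cells of the bone-forming lineage.

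Cells lay close to the threshold on both sides. The CD51 intensities chose the classes and are given as a description. The CD51-high cells ran from 412 through a median of 609 to 1959, and the CD51-low cells from -54 through 143 to 374. The cells just inside the threshold lay at 412, 444 and 453, and those just outside at 374, 341 and 336. Between 300 and 500 there were 8 high and 6 low cells. The 4 sorting plates contributed unevenly: plates P1CD61minus, P1CD61plus and P2CD61plus each held 8 CD51-high cells, beside 16, 9 and 14 CD51-low cells, while P2CD61minus held 1 CD51-high and 15 CD51-low cells. No plate held cells of both gates, and a difference between gates cannot be told apart from one between plates. In the CD61- gate nearly all high cells came from P1CD61minus, while the low cells came from both plates. A difference between the classes of that gate can therefore also be one between its plates. The CD61+ gate gave 16 of the 25 high but 23 of the 54 low cells. Values over all cells thus mix the classes with the gates.

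Other index-sort channels moved with CD51, and over all cells the CD45 channel had the highest correlation of them. CD45 is the pan-hematopoietic surface protein that the gate was set to exclude. CD51-high cells had a CD45 intensity from 453 through a median of 1229 to 1826, against -11, 361.5 and 1151 in CD51-low cells, a 3.40-fold higher median. Taking 1 high and 1 low cell at a time, the high cell had the higher CD45 value in 89.3% of pairs, although the classes overlapped. The medians were 1258 and 631 in the CD61+ gate and 979 and 336 in the CD61- gate. Across the 79 cells CD45 and CD51 intensities had a Spearman rho of 0.76 and a Pearson r of 0.69, and rho within the plates was 0.77, 0.69, 0.44 and 0.71. The points share the sorter and 1 laser, which by the channel names excited the CD45, CD200 and CD51 dyes alike. CD200, the third of these channels, had medians of 883 and 360 in high and low cells, with a rho to CD51 of 0.51. CD71, CD61 and VCAM1 were nearer between the classes, at medians of 471 and 330, 1710 and 1283.5, and 686 and 656.

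**Figure D1:**
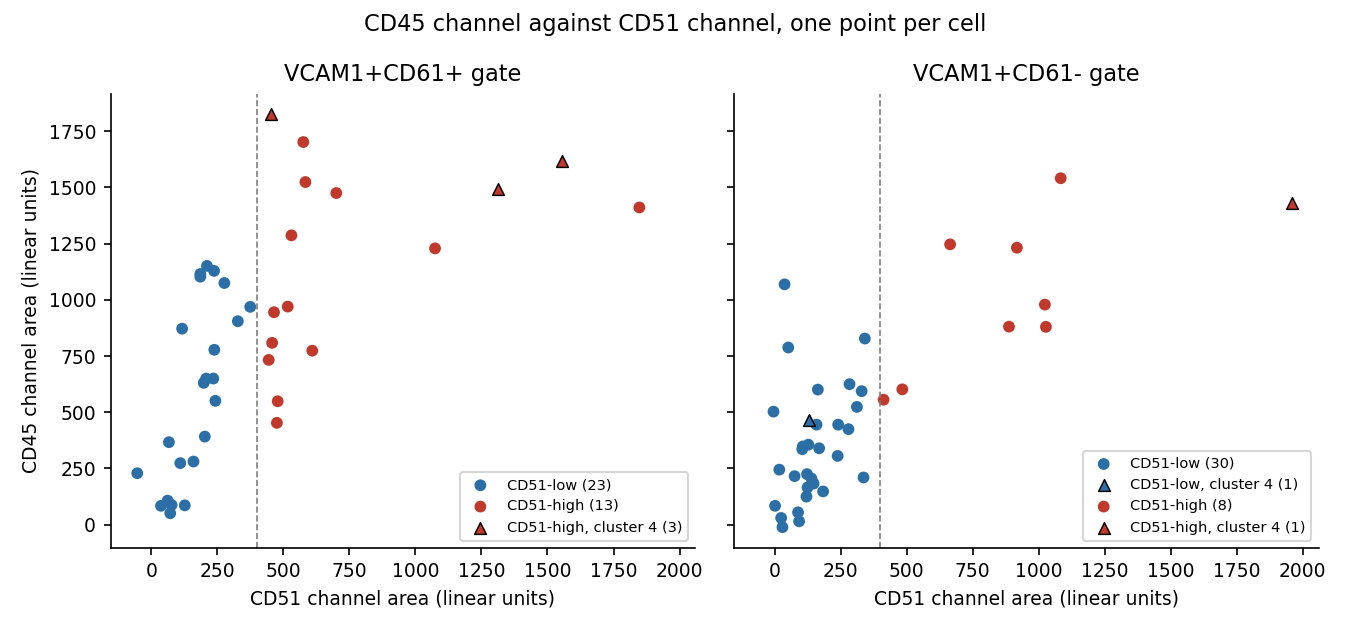
CD45 channel area against CD51 channel area in linear units for the CD61+ and the CD61- gate, 1 point per cell, with the threshold of 400 dashed. High cells (right of the line) lie mostly above the low cells, with CD45 medians of 1258 and 631 in the CD61+ gate and 979 and 336 in the CD61- gate.

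The CD45 transcript did not follow its channel. Ptprc, the gene of CD45, was counted in 2 of 25 CD51-high and 9 of 54 CD51-low cells, and had no count at all in the 9 CD51-high cells of the CD61- gate, whose median CD45 intensity was 979. Only 1 cell held more than traces, a CD51-low cell with 646.5 CPM of Ptprc (CPM, a gene's counts scaled to a common library total), a CD51 intensity of 129 and a CD45 intensity of 464. Listed markers of T and NK cells and of neutrophils were also scarce in most cells. The summed markers of T and NK cells had a median of 0.7 CPM in high and 0.4 CPM in low cells, with Cd3g, Cd4 and Il7r at 0 in all high cells. The summed neutrophil markers reached at most 2.7 CPM in any high cell, with S100a8 and S100a9 at 0, and 432.5 CPM in a low cell. Macrophage and monocyte markers, a list that includes Vcam1, had summed medians of 1075 and 1042 CPM in high and low cells. B and plasma cell markers, a list that includes the CAR-listed gene Ebf1, had 210 and 192 CPM. The part of the CD45 channel in the CD51 split was not tested.

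The dye channel moved with CD51 in opposite directions in the gates. In the CD61+ gate CD51-high cells had a median dye intensity of 76177 against 60586, whereas in the CD61- gate the high cells lay at 47453 (42051 to 52878) against 68018 (45726 to 77681). Forward scatter area, a measure of cell size, had medians of 94382 and 115758 in the CD61- gate, with the high cell larger in 7.89% of pairs, and 142358 and 148265 in the CD61+ gate, where the high cell was larger in 48.1% of pairs. The combined Ter119 and CD41 channel was 1883 against 704 in the CD61- gate and 1644 against 1586 in the CD61+ gate. CD51-high cells of the CD61- gate were thus smaller, dimmer in the dye and brighter in the Ter119 and CD41 channel than most low cells of that gate, with overlap in each channel. Within plate P1CD61minus the high and low medians were 93548 and 111883.5 for forward scatter area and 47448.5 and 59176.5 for the dye. For Ter119 and CD41 they were 1902 and 1109.5 there. The part of these channels in the gene results was not tested.

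The label was checked against the mRNA of the same protein, and the mRNA did not follow the split. Itgav (ENSMUSG00000027087.11, GRCm38 chromosome 2, 83724397 to 83806916, plus strand) had 191 CPM in the summed reads of CD51-high cells and 183 CPM in CD51-low cells, a 1.05-fold ratio that moved between 0.879 and 1.13 when any single cell was left out. Per cell the values were 0, 89.0 and 980 CPM (lowest, median, highest) in high cells and 0, 176 and 928 CPM in low cells, so the median was lower in the high class and the ranges overlapped throughout. A count was found in 20 of 25 high and 48 of 54 low cells. In the CD61+ gate the summed levels were 201 and 179 CPM (1.12-fold) and in the CD61- gate 175 and 185 CPM (0.944-fold). Across the 79 cells, which share sorter, plates and library chemistry, the CD51 intensity and Itgav CPM had a rho of -0.11, with -0.25 in the CD61+ and 0.01 in the CD61- gate. The classes are therefore called by the CD51 channel below, and no difference between them is read as one in alpha V integrin mRNA.

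The beta chains that pair with alpha V were also near parity. Itgb1, the common beta chain of matrix-binding integrins, was counted in 25 of 25 high and 53 of 54 low cells, with medians of 254 and 263 CPM and summed levels of 250 and 273 CPM. Itgb5, the vitronectin-binding beta 5 chain, had summed levels of 43.2 and 47.9 CPM, with 50.2 against 37.2 CPM in the CD61+ gate and 30.8 against 54.1 CPM in the CD61- gate. Itgb3, which encodes the gated CD61 protein, had 9.34 and 13.4 CPM in the CD61+ gate, and 0 and 0.597 CPM in the CD61- gate. Itgb6 stood at 0.0183 and 0.0263 CPM, too few cells to enter the comparison, and Itgb8 is not analysed here. Of the 4 entered genes of alpha V and its partners, 0 passed 2-fold in both gates. Vcam1 (767 and 845 CPM) and Cd200 (333 and 321 CPM), the genes of 2 other recorded surface proteins, were likewise close. The 4 entered genes of the recorded surface proteins had a median log2 ratio of 0.06.

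**Figure D2:**
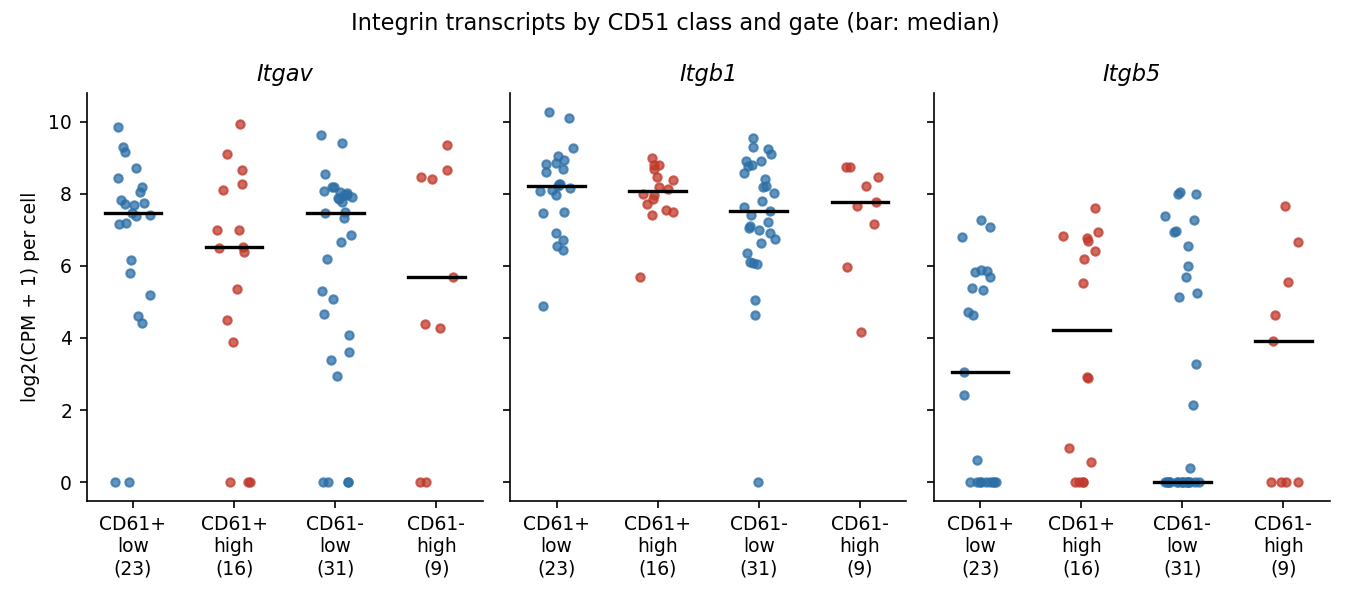
Per-cell log2(CPM + 1) of integrin genes by CD51 class and gate, with the median as a bar and the number of cells under each column. Itgav and Itgb1 overlap between the classes in both gates, at summed levels of 191 and 183 CPM and of 250 and 273 CPM over all cells.

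CD51-high and CD51-low cells were found in every transcriptional cluster. Clustering the 88 cells of the labelled gates gave 6 clusters. The pair of CAR-like clusters, 1 and 3, held 8 and 2 of the 25 CD51-high cells and 18 and 9 of the 54 CD51-low cells. No listed CAR gene was among the leading genes of either cluster. Their mean log2(CPM + 1) over the CAR list was 9.36 and 8.95, beside 7.71 and 7.95 in the unnamed clusters 5 and 6. The osteolineage-like cluster 2 held 5 high cells, a share of 20.0% (95% Clopper-Pearson interval 6.83 to 40.7), and 10 low cells, 18.5% (9.25 to 31.4). This 1.48-point difference depended on the clustering, at 22.1 points with Leiden resolution 0.5 and 15.6 points with 20 principal components. Cluster 5, of low depth and without a name, held 1 high and 10 low cells, and the unnamed cluster 6 held 5 and 6. In the CD61- gate 6 of the 9 CD51-high cells fell in cluster 1. Clusters 1 to 6 held 2, 5, 2, 3, 1 and 3 of the 16 CD51-high cells of the CD61+ gate. The intervals cover counting of cells within 1 sample per class, so differences in share were not tested.

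Cluster 4 stood apart. It was led by Pi16, Egfl7, Cd34, Pecam1 and Plvap. Of the split cells it held 4 CD51-high cells, 16% of the class (4.54 to 36.1), against 1 CD51-low cell, 1.85% (0.0469 to 9.89). In all, 9 of the 88 clustered cells fell in it. The rest of these came from the VCAM1+ gate not split on CD61, where no cell exceeded a CD51 intensity of 242. Its 4 high cells had CD51 intensities of 453, 1312, 1556 and 1959, which include 3 of the 4 brightest of all cells. Their Itgav levels were 0, 21.5, 91.5 and 0 CPM. Over the split cells, the summed Itgav of the cluster was 38.2 CPM, below that of every other cluster (128 to 280 CPM). The cell at 1556, with 91.5 CPM, lay near the CD51-high median for Itgav of 89.0 CPM, and the other 3 lay below it. The cluster was mixed. The endothelial cadherin gene Cdh5 was counted in 3 of its 4 high cells, but not in the cell at 1556. Its CD51-low cell, at 129, was the cell described above as the only one with more than traces of Ptprc. The second-brightest cell, at 1848, was in cluster 2. Results that rest on these cells are given also without the 5 split cells of this cluster, an alternative chosen after the data had been seen. Without them the CD45 median ratio was 2.72 and the log2 ratio of Itgav 0.25.

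Across the 8702 genes counted in at least 20 of the 79 cells, 921 (10.6%) were 2-fold or more higher in CD51-high cells and 1087 (12.5%) were 2-fold or more lower. In the CD61+ gate 1244 (14.3%) were higher and 1540 (17.7%) lower, and in the CD61- gate 1594 (18.3%) and 2094 (24.1%). Only 299 genes (3.44%) were higher and 443 (5.09%) lower in both gates, while 370 (4.25%) were higher in the CD61+ and lower in the CD61- gate and 326 (3.75%) the reverse. Genes that differed in opposite directions in the gates were therefore about as many as those that differed in 1 direction. In the 3 plates with 8 high cells each, 102 genes (1.17%) passed 2-fold higher in all and 178 (2.05%) lower in all. The median log2 ratio of all tested genes was -0.03 over all cells, -0.08 in the CD61+ gate and -0.03 in the CD61- gate. CD51-high cells had a median of 2060906 reads and 4670 detected genes, against 1900387 and 4088.5 in low cells, and a median mitochondrial share of 1.10% against 1.22%.

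**Figure D3:**
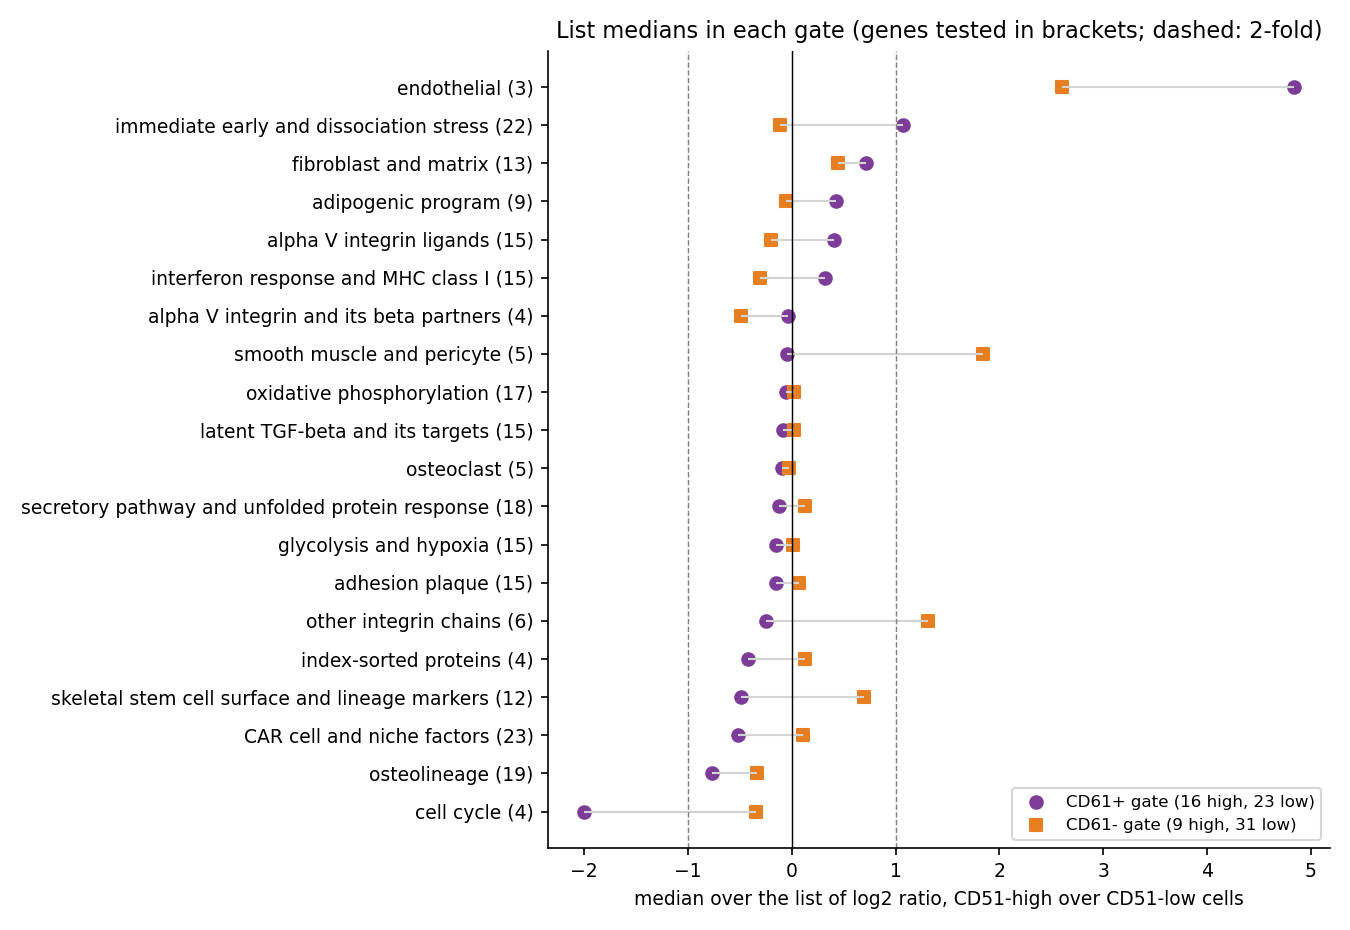
Median log2 ratio of summed CPM, CD51-high over CD51-low cells, for each gene list with at least 3 tested genes, in the CD61+ gate (circles) and the CD61- gate (squares), with 2-fold dashed. Only the endothelial list lies past 2-fold in both gates (4.84 and 2.61), and the immediate early list lies at 1.07 in the CD61+ and -0.11 in the CD61- gate.

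The ligands of alpha V integrins showed no shared direction. Of 15 entered ligand genes, 4 were 2-fold higher over all cells and 0 lower (10.6% and 12.5% of all genes). In the CD61+ gate 3 were higher and 2 lower (14.3% and 17.7%), in the CD61- gate 1 was higher and 4 lower (18.3% and 24.1%), and 0 passed in both gates. The list medians were 0.19, 0.40 and -0.20. Spp1 (osteopontin) had summed levels of 57162 and 27829 CPM over all cells, yet its per-cell medians were 145 and 143 CPM. In the CD61+ gate it had 87143 against 50918 CPM, with 53.2% of the high counts from 1 cell, and in the CD61- gate 4516 against 14399 CPM, with 98.5% of the high counts from 1 cell. Osteopontin was thus carried by a few cells in each class. Ibsp (bone sialoprotein) was level, at 6132 and 6053 CPM and per-cell medians of 4425 and 4332 CPM. Fn1 (fibronectin) had 62.7 and 24.8 CPM over all cells, 1.91-fold in the CD61+ gate and 2.16-fold in the CD61- gate, the latter 0.309-fold without 1 cell. Tnc, which encodes tenascin C, had 419 and 438 CPM, and Thbs1, which encodes thrombospondin 1, 12.3 and 10.8 CPM. Tgfbi, a TGF-beta-induced matrix protein, was 5.96-fold higher in the CD61+ gate and 18.4-fold lower in the CD61- gate, where 90.5% of the low counts came from 1 cell.

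Among the other integrin chains, Itga5, the fibronectin receptor alpha chain, was the 1 gene of 6 entered that passed 2-fold in both gates. Itga5 (GRCm38 chromosome 15, 103344286 to 103366763, minus strand) had 28.4 CPM in high and 8.0 CPM in low cells, with a count in 13 of 25 and 16 of 54 cells. The levels were 34.7 against 15.6 CPM in the CD61+ gate (2.23-fold, 1.21 to 2.61 when any 1 cell was left out) and 17.4 against 3.58 CPM in the CD61- gate (4.86-fold, 3.20 to 7.42). Over all cells its log2 ratio was 0.98 without cluster 4 and 0.23 among CAR-like and osteolineage-like cells alone, and in P2CD61plus it was -0.25. The laminin receptor chain Itga6 was 3.72-fold higher in the CD61+ gate and 0.689-fold in the CD61- gate, and the tenascin-binding chain Itga9 was 0.489-fold and 2.80-fold. Itga11, the collagen receptor alpha 11 chain of mesenchymal cells, had 112 and 51.0 CPM in the CD61- gate and a 0.797-fold ratio in the CD61+ gate. The list median was 0.95 over all cells, -0.25 in the CD61+ gate and 1.31 in the CD61- gate.

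Genes of latent TGF-beta and its targets were divided. Of 15 entered genes 2 were higher and 1 lower past 2-fold in both gates, and the list median was 0.12. Ltbp3, a latent TGF-beta binding protein, had 40.7 and 14.7 CPM in the CD61+ gate (2.76-fold, 2.44 to 3.92 without any 1 cell) and 22.6 and 8.69 CPM in the CD61- gate (2.60-fold, 1.10 to 3.08), so this pass too rested on 1 cell. Smad3, a receptor-activated signal transducer of the pathway, had 20.9 and 5.23 CPM over all cells, 2.83-fold in the CD61+ gate (2.19 to 4.25 without any 1 cell) and 3.71-fold in the CD61- gate (1.12 to 26.2). By plate the log2 ratio of Smad3 was 0.81 in P1CD61minus, with 8 high cells, and 7.03 in P2CD61minus, with 1, so its pass in the CD61- gate rested on 1 cell. Tgfb3, a TGF-beta ligand, was lower, at 7.79 against 23.1 CPM in the CD61+ gate and 0.303 against 19.2 CPM in the CD61- gate, where 1 of 9 high cells had a count. Of 15 entered genes of the adhesion plaque, the complex that links integrins to actin, 0 were higher and 1 lower in both gates, with a median of -0.07. The lower gene was Vcl (vinculin), at 12.8 and 29.4 CPM in the CD61+ gate and 1.72 and 8.12 CPM in the CD61- gate.

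CAR cell genes had a list median below that of all genes in the CD61+ gate (-0.51 against -0.08) and above it in the CD61- gate (0.11 against -0.03). Of 23 entered genes 1 was 2-fold higher and 5 lower in the CD61+ gate, where 14.3% and 17.7% of all genes were, so the lower count is near the background. In the CD61- gate 0 were higher and 2 lower (18.3% and 24.1% of all genes), with 0 in both gates. The medians by plate were -0.56 and -0.58 in the CD61+ plates and 0.03 in P1CD61minus. Agt (angiotensinogen) had per-cell values with medians of 31.7 CPM in high and 610 CPM in low cells of the CD61+ gate, at summed levels of 256 and 773 CPM (3.02-fold lower), and was counted in 9 of 16 and 20 of 23 cells. Agt had 851 and 918 CPM in the CD61- gate. Cxcl12, which encodes the niche chemokine CXCL12, had 8650 and 11180 CPM in the CD61+ gate, where its medians were 579 and 14715 CPM, and 24866 and 21102 CPM in the CD61- gate. Kitl (stem cell factor) had 891 and 1562 CPM over all cells, with medians of 384 and 1009 CPM. Lepr, the leptin receptor, had 194 and 399 CPM in the CD61+ gate, with per-cell medians of 88.0 and 278 CPM there and 542 and 352 CPM in the CD61- gate. Foxc1, a transcription factor that maintains CAR cells, had 16.6 and 37.1 CPM in the CD61+ gate and was counted in 11 of 16 and 20 of 23 cells. Il7, the lymphoid cytokine, had 48.1 and 133 CPM in the CD61- gate.

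The adipogenic list held 1 gene of 9 that passed 2-fold in both gates, and medians of 0.43 in the CD61+ and -0.05 in the CD61- gate. Adipoq (adiponectin) was counted in 3 of 16 high and 14 of 23 low cells of the CD61+ gate, with summed levels of 713 and 1634 CPM (2.29-fold lower), and in 8 of 9 and 28 of 31 cells of the CD61- gate, at 2433 and 2524 CPM. After thinning to 942845 reads per cell, which left out 1 high and 7 low cells of lower depth over both gates, Adipoq was counted in 3 of 15 and 9 of 18 cells of the CD61+ gate. Among CAR-like and osteolineage-like cells alone, the CD61+ log2 ratios were -0.31 for Adipoq and -0.98 for Agt. Lpl (lipoprotein lipase) had 1607 and 2803 CPM over all cells. Plin2, the lipid droplet coat protein, went the other way, at 104 and 22 CPM in the CD61+ gate (12 of 16 and 6 of 23 cells) and 102 and 50.0 CPM in the CD61- gate, where the 2.05-fold ratio was 0.838 without 1 cell.

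Several genes of the bone-forming lineage had lower summed levels in CD51-high cells, while the lineage's per-cell scores were alike. Of 19 entered genes 0 were higher and 4 lower past 2-fold in both gates (3.44% and 5.09% of all genes), and the medians were -0.77 in the CD61+ and -0.33 in the CD61- gate. Over all cells 1 was higher, Spp1 as given above, and 3 were lower. The mean of log2(CPM + 1) over the list was 4.17 ± 2.12 (SD over 25 cells) in high and 3.95 ± 2.02 (SD over 54 cells) in low cells. The 4 genes were Sp7 (osterix), Bglap and Bglap2 (osteocalcin) and Phex, an endopeptidase of phosphate control. Sp7 had 28.6 and 109 CPM in the CD61+ and 13.1 and 46.0 CPM in the CD61- gate. In P1CD61minus, which held 8 of the 9 high cells of the CD61- gate, the log2 ratio was -0.88 for Sp7 and -0.90 for Bglap2. Neither passed 2-fold within that plate. Bglap was counted in 4 of 16 high and 14 of 23 low cells of the CD61+ gate, at 469 and 1148 CPM. The plates differed: the log2 ratio was -13.31 for Bglap and -3.41 for Bglap2 in P1CD61plus, but 0.40 and 0.28 in P2CD61plus. In the CD61- gate Bglap was counted in 1 of 9 and 3 of 31 cells, at 7.82 and 791 CPM, so few cells carry that ratio. Bglap and Bglap2 are near-identical copies whose reads may be split between them, which makes their separate levels uncertain. Phex had 7.05 and 40.2 CPM over all cells, 5.70-fold lower, with a log2 ratio of -0.27 in P2CD61plus. Alpl (alkaline phosphatase, 588 and 858 CPM) and Runx2 (166 and 143 CPM), the early markers of the lineage, did not pass 2-fold over all cells. By plate the list median was -1.36 in P1CD61plus, -0.22 in P2CD61plus and -0.27 in P1CD61minus.

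Immediate early and stress genes, which are switched on within minutes of a stimulus, cell isolation included, were mostly higher in CD51-high cells of the CD61+ gate and not in those of the CD61- gate, a difference between gates that was not tested. Of 22 entered genes 13 were 2-fold higher and 0 lower in the CD61+ gate (14.3% and 17.7% of all genes), with a median of 1.07 and 20 above 0. In the CD61- gate 1 was higher and 6 were lower (18.3% and 24.1% of all genes), a lower count near the background, with a median of -0.11. None (0) passed in both gates. The 2 below 0 in the CD61+ gate were Nr4a1 and Myc. In the CD61+ plates the medians were 0.92 and 0.81, and in P1CD61minus 0.12. Fos was counted in 16 of 16 high and 14 of 23 low cells of the CD61+ gate. Its values there were 12.2, 2262 and 19157 CPM (lowest, median, highest) in high and 0, 0.917 and 9452 CPM in low cells, and the summed levels of 4760 and 1699 CPM gave a 2.80-fold ratio (2.27 to 3.57 without any 1 cell). At that equal depth Fos was counted in 15 of 15 and 12 of 18 cells. The ranges overlapped, with the high cell above the low cell in 78.8% of pairs.

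Its AP-1 partners and a phosphatase of the same response were also higher in CD51-high cells of the CD61+ gate, by amounts that differed between plates for some. Jun had 1433 and 512 CPM, Junb 1252 and 453 CPM, Fosb 97.7 and 23.4 CPM (4.18-fold) and Dusp1, the phosphatase that turns off MAP kinases, 263 and 71.5 CPM (3.68-fold). Egr1 had 711 and 396 CPM (1.80-fold). In the CD61- gate, Fos was at 7424 and 6794 CPM, Jun at 1648 and 1562 CPM, and Junb at 1776 and 1781 CPM, while Dusp1 (218 and 580 CPM), Fosb (58.7 and 129 CPM) and Klf6 (241 and 526 CPM) were lower in high cells. CD51-low cells of the CD61+ gate thus had the lowest summed level of Fos among the 4 combinations of gate and class. The dye intensity went in opposite directions in the gates as well (medians of 76177 and 60586 in the CD61+ and 47453 and 68018 in the CD61- gate), and its part in the immediate early result was not tested. Without cluster 4 the list median in the CD61+ gate was 1.08.

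**Figure D4:**
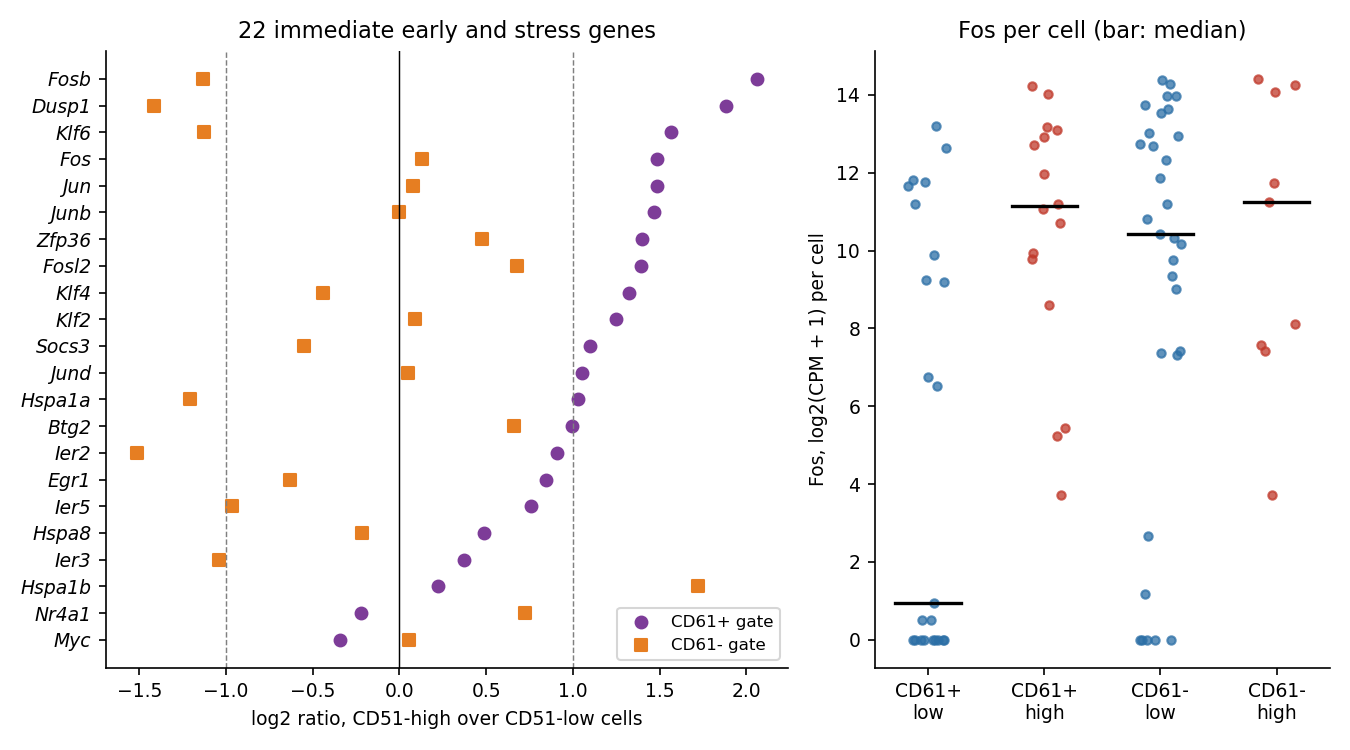
Log2 ratio of summed CPM, CD51-high over CD51-low cells, of 22 immediate early and stress genes in each gate (left), and per-cell log2(CPM + 1) of Fos by gate and class with the median as a bar (right). In the CD61+ gate 20 of 22 genes lie above 0, and the Fos median is 2262 CPM in high and 0.917 CPM in low cells.

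Among the 299 and 443 genes past 2-fold in both gates, 14 per direction were named by how consistently single cells of the classes differed. The pair rule chose these genes on the same contrast, so their values are a description. Among the higher genes were Ubp1, a transcription factor, with 56.9 and 19.9 CPM, counted in 19 of 25 high and 22 of 54 low cells. The gate ratios of Ubp1 (GRCm38 chromosome 9, 113930934 to 113977202, plus strand) were 2.62-fold in the CD61+ and 3.93-fold in the CD61- gate. Kpna6, an importin alpha of nuclear import, had 42.7 and 4.06 CPM (6.15-fold and 17.8-fold). Ice1, a subunit of the little elongation complex for small nuclear RNA genes, had 22.6 and 4.06 CPM (3.89-fold and 5.74-fold), but its log2 ratio over all cells was -0.15 at a CD51 threshold of 600. These 3 were the higher genes that passed 2-fold in both gates whichever single cell was left out, and the other 11 of 14 were under 2-fold in at least 1 gate without some single cell.

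The other higher genes have varied roles. Ppp3ca, the catalytic subunit of calcineurin, had 136 and 30.9 CPM, with per-cell medians of 115 and 2.17 CPM. Hsd3b7, an enzyme of oxysterol and bile acid metabolism, had 118 and 44.5 CPM and was counted in 18 of 25 and 15 of 54 cells. Vdac1, a channel of the mitochondrial outer membrane, had 118 and 33.5 CPM, with medians of 91.4 and 0 CPM. In these 3 genes the median high cell lay above the median low cell, while the highest low cells reached 210, 393 and 257 CPM. Lmbrd1, needed for cobalamin export from lysosomes, had 80.2 and 26.2 CPM, and Rab5b, a GTPase of early endosomes, 48.3 and 24.4 CPM. Pde4d, which degrades cyclic AMP, had 75.6 and 27.7 CPM, and its 2.31-fold ratio in the CD61+ gate moved between 0.868 and 19.1 when any single cell was left out. Cops2, of the COP9 signalosome, had 83.7 and 32.1 CPM, and Birc3, an inhibitor of apoptosis, 35.7 and 15.0 CPM. Fez2 (68.1 and 25.6 CPM), Echdc2 (65.7 and 9.83 CPM) and Rab3il1 (85.8 and 21.5 CPM) completed the 14. Echdc2 turned to a log2 ratio of -1.18 at a threshold of 600.

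Among the lower genes Igtp, an interferon-inducible GTPase, had the largest fold over all cells. Igtp (GRCm38 chromosome 11, 58199556 to 58207591, plus strand) was counted in 7 of 25 high and 33 of 54 low cells. It ranged from 0 to 16.6 CPM in high and from 0 to 927 CPM in low cells, with summed levels of 1.70 and 78.2 CPM (45.9-fold lower). The levels were 2.39 and 53.6 CPM in the CD61+ and 0.505 and 92.5 CPM in the CD61- gate, and the log2 ratios by plate were -7.85, -2.80, -4.85 and -7.79. Low cells at 0 overlapped with the high cells in each gate. The wider interferon and MHC class I list did not share this: of 15 entered genes 0 passed in both gates, and its medians were 0.32 in the CD61+ and -0.31 in the CD61- gate. Il15, a cytokine of NK and memory T cells, was counted in 1 of 25 high and 21 of 54 low cells. It had no count in the 16 high cells of the CD61+ gate and a count in 7 of 23 low cells. By summed reads it was at least 276-fold lower there, against a floor of 3 counts over the class. In P2CD61minus, with 1 high cell, its log2 ratio was 1.68. Akap7, an anchor of protein kinase A, had no count in the 9 high cells of the CD61- gate. It was counted in 14 of 31 low cells and was at least 233-fold lower by summed reads. Naaladl2 likewise had no count in those 9 cells and was at least 188-fold lower by summed reads. It was counted in only 8 of 31 low cells, so the number of cells differs far less than the fold.

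The remaining lower genes were less extreme. Abhd12, a lysophospholipase, had 23.2 and 110 CPM, counted in 8 of 25 and 34 of 54 cells. Rnps1, a splicing factor of the exon junction complex, had 16.6 and 72.0 CPM, and Fcf1, which acts in ribosomal RNA processing, 46.3 and 133 CPM. Lamtor3, of the lysosomal Ragulator complex, had 45.0 and 160 CPM, and Vps36, of the endosomal ESCRT-II complex, 8.28 and 31.3 CPM. Stard5, a sterol transfer protein, had 7.47 and 66.5 CPM, with 89.7% of the high counts from 1 cell. Chchd7 (41.9 and 206 CPM), Sft2d1 (44.4 and 147 CPM), Rspry1 (12.1 and 34.6 CPM) and Dzip1l (8.17 and 13.1 CPM) completed the 14. Of the lower genes 12 of 14 passed 2-fold in both gates whichever single cell was left out, the exceptions being Rspry1 and Fcf1. In the 3 plates with 8 high cells each, 13 of 14 higher and 13 of 14 lower genes kept their direction, with Pde4d at -1.11 in P2CD61plus and Dzip1l at 2.45 in P1CD61plus. These plates make up the gates that chose the genes, so this is a description and no separate check. In P2CD61minus, with 1 high cell, 4 of 14 higher and 13 of 14 lower genes kept their direction.

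**Figure D5:**
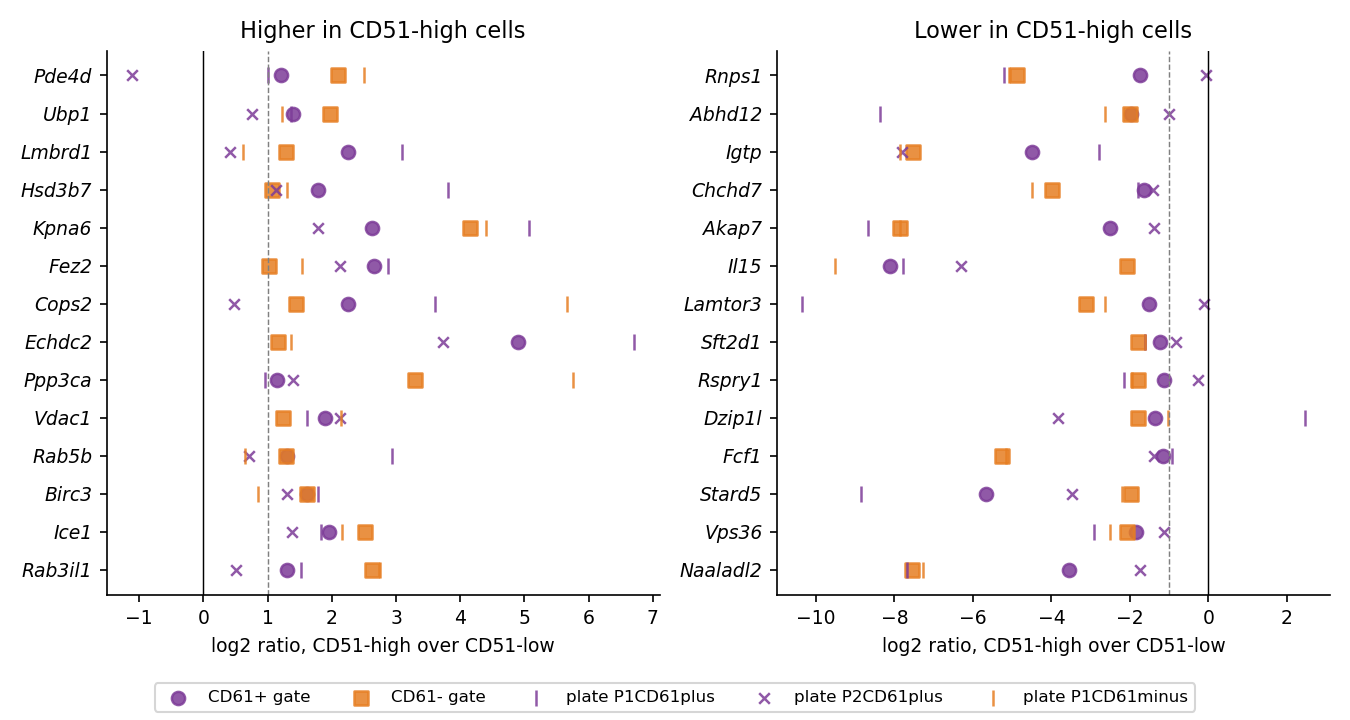
Log2 ratio of summed CPM, CD51-high over CD51-low cells, for the 14 higher and 14 lower named genes in each gate (filled symbols) and in the 3 plates with 8 CD51-high cells each (small marks), with 2-fold dashed. The gates lie past the dashed line by the choice of genes. The plates make up these gates, so their direction, kept for 13 of 14 genes on each side, follows in part from the same choice.

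Endothelial markers were higher in the summed reads of CD51-high cells in both gates, but not in every plate. Their median in the CD61- gate was below 0 without cluster 4. Only 3 of 14 listed genes were counted in enough cells, Pecam1, Eng and Vwf, and all 3 were past 2-fold higher in both gates, with list medians of 4.84 and 2.61. By plate the list median was 5.37 in P1CD61plus and 4.61 in P2CD61minus, with 1 high cell. It was -0.55 in P1CD61minus and -0.24 in P2CD61plus. As the median over these genes, the high cell was above the low cell in 59.0% of pairs in the CD61+ gate and 49.6% in the CD61- gate. Pecam1 (CD31) had 71.3 and 1.77 CPM, and in the CD61- gate 99.9% of its high counts came from 1 cell. Eng (endoglin), which stromal progenitors also express, had 210 and 73.1 CPM. Cdh5, the cadherin of endothelial junctions, was counted in 3 of 25 high and 0 of 54 low cells, at 21.6 CPM, at least 819-fold higher. These 3 cells were in cluster 4 and had 277.5, 130.2 and 265.7 CPM. The summed markers ranged from 0 through a median of 79.8 to 20559 CPM in high cells and from 0 through 12.1 to 1435 CPM in low cells, with Cdh5 and Emcn at 0 in all low cells. Without cluster 4 the same 3 genes had medians of 1.12 in the CD61+ and -0.18 in the CD61- gate. By gene, the CD61+ and CD61- log2 ratios were then 0.33 and -0.46 for Eng, 6.45 and -0.18 for Pecam1, and 1.12 and 2.68 for Vwf. Vwf thus stayed past 2-fold in both gates, Pecam1 in the CD61+ gate, and Eng in neither. With all split cells, the log2 ratio of Vwf was -0.35 in P2CD61plus.

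Fibroblast and matrix genes had a median of 0.64 over 13 entered genes, with 6 higher and 0 lower over all cells and 0 past 2-fold in both gates. Dcn (decorin), a small matrix proteoglycan, had 869 and 356 CPM, with per-cell medians of 168 and 24.9 CPM, but its 1.41-fold ratio in the CD61+ gate was 0.511 without 1 cell, which held 65.7% of the high counts. Skeletal stem cell surface markers had medians of -0.49 in the CD61+ and 0.70 in the CD61- gate over 12 entered genes, and Eng alone passed in both, but not without cluster 4. Ncam1, a neural adhesion molecule and 1 of 2 entered genes of the Schwann cell list (median -0.98), was lower in both gates, at 38.2 and 182 CPM in the CD61+ and 7.42 and 99.0 CPM in the CD61- gate. Its per-cell medians in the CD61+ gate were 9.13 and 82.7 CPM, and its log2 ratios in P1CD61plus and P2CD61plus -5.31 and -0.41.

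The other lists showed little in common between the gates. Housekeeping programs were level: the median was -0.04 for 18 genes of the secretory pathway and unfolded protein response, -0.18 for 15 of glycolysis and hypoxia and 0.02 for 17 of oxidative phosphorylation, with 0 genes of any of the 3 past 2-fold in both gates. The 4 entered cell cycle genes had medians of -2.0 in the CD61+ and -0.34 in the CD61- gate, with 0 in both. Smooth muscle and pericyte genes (5 entered) had medians of -0.04 and 1.84, and chondrocyte genes (2 entered) 0.30 and 1.09. Osteoclast genes (5 entered) had medians of -0.09 and -0.03, and macrophage genes (2 entered) -0.77 and 1.41. The macrophage list includes Vcam1, and Tyrobp was at 0 in all high cells and Lyz2 and Mrc1 in all low cells. B and plasma cell genes (2 entered) had a median of 0.43 over all cells, and the pair of entered megakaryocyte genes 0.16 (Itgb3) and 3.89 (Vwf, also an endothelial gene). The entered hematopoietic progenitor genes were Cd34 at 6.15, a leading gene of cluster 4, and Slamf1 at 0.10. The 1 entered T and NK cell gene, Cd3d, stood at 0.15 over all cells, -3.79 in the CD61+ and 3.97 in the CD61- gate. These ratios compare low levels. The summed T and NK list had medians of 0.5 and 1.2 CPM in high and low cells of the CD61+ gate. In the CD61- gate they were 1.1 and 0.4 CPM. No neutrophil or erythroid gene was counted in enough cells to enter. Summed erythroid markers reached 2030 CPM in high and 11258 CPM in low cells, with medians of 0.0 and 0.2 CPM.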

How the data were processed

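Smart-seq2 libraries of single marrow stromal cells were quantified by the authors with kallisto 0.43.0 (R 3.5.1 and build mm10 also named), per the submitters' processing notes. The annotation and channel compensation are not stated there. Estimated counts per gene, all whole numbers, were deposited for 16580 genes and 91 cells. The deposited cell table gives index-sort intensity on a linear scale (values under 0 occur), counts of reads and of genes per cell as whole numbers, and the plate; 34 of its columns of per-cell values were not used. Total counts ran from 507713 to 5301885 per cell with a median of 1922483. No cell was left out for quality, and no doublet caller was run.

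Counts were summed over the cells of a class and expressed as CPM, and genes with a count in at least 20 of 79 cells (8702) entered. Ratios are CD51-high over CD51-low, with a floor of 3 counts per class, and 2-fold marks a difference. No test across cells was run, because the labels name no animal. Each cell was left out in turn. A pair share is the percentage of pairs of 1 high and 1 low cell in which the high cell is higher. Clustering used log2(CPM + 1) of 2000 variable genes, 15 principal components, 10 neighbours and Leiden resolution 1 (scanpy 1.11.5, igraph 0.11.9), and clusters were named from marker lists, so names may differ from the study's own. Named genes were the 14 per direction, past 2-fold in both gates by summed and mean CPM and counted in at least 25% of the higher class in each gate, with the pair share farthest from even; mitochondrial, ribosomal, predicted and Riken genes were left out. The members, the lists and the threshold were chosen with earlier results of these data known. Gene positions are from GENCODE on GRCm38. Calculations ran in Python 3.11.15 (scipy 1.17.1, pandas 2.3.3, numpy 2.4.6), figures were drawn with matplotlib 3.10.9, and edgeR 4.0.16 and DESeq2 1.42.0 in R 4.3.3 gave alternative scalings only. The calculation was tested on simulated data in which only widely counted genes were changed, which does not cover the sparser genes.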

Additional observations from a re-analysis of the deposited data

Results flagged for a closer look

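In 4 of 32 channels and lists examined, both CD61+ plates moved one way and both CD61- plates the other, as the difference between the CD51-high and CD51-low medians. The rule uses signs only, with no minimum size, so independent random signs would meet it for about as many items as were found. The difference between the gates was not tested, and P2CD61minus holds 1 CD51-high cell. The Ter119 and CD41 channel differed by 792.5 and 741 in the CD61- plates and by -65 and -65.5 in the CD61+ plates. The dye channel differed by -11728 and -18133 in the CD61- plates and by 18276.5 and 13718 in the CD61+ plates. Side scatter area differed by -216 and -13708 against 794.5 and 12379.5. The list median of the alpha V integrin ligands was -0.30 and -4.54 against 0.05 and 0.00 on the log2 scale.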

How the results depend on the processing

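Across 21 alternative settings, the counts of genes moved with the filter on low counts. With a count in at least 5 cells, 2307 genes were 2-fold higher and 2645 lower over all cells, 770 and 1119 in both gates, and 2 list medians passed 2-fold in both gates. With at least 40 cells these were 237, 309, 70, 103 and 0, and with no filter 2975, 3271, 898, 1271 and 6. At a CD51 threshold of 600 (13 high cells) 1874 genes were lower over all cells and 987 in both gates. Lists need 3 entered genes, and of the endothelial list, the 1 past 2-fold in both gates, only 1 or 2 genes entered with fewer cells or reads. The count was therefore 0 without the cells from 300 to 500, at equal depth, among CAR-like and osteolineage-like cells, without cluster 4, and without each plate in turn (0 to 0). Held to Pecam1, Eng and Vwf, the medians in the CD61+ and CD61- gates were 5.36 and 3.44 without the cells from 300 to 500. They were 4.91 and 2.03 at equal depth, 4.84 and 4.61 without P1CD61minus, and 5.37 and 2.61 without P2CD61plus. In the settings that follow, 1 gate was under 2-fold even with these genes held. The medians were 1.93 and 0.01 among CAR-like and osteolineage-like cells, and 1.12 and -0.18 without cluster 4. They were -0.24 and 2.61 without P1CD61plus, and 4.84 and -0.55 without P2CD61minus. The osteolineage-like share of high minus low cells was 1.48 percentage points, 22.1 at resolution 0.5 and 15.6 with 20 principal components. The log2 ratio of Itgav was -0.03 to 0.13 without a plate, -0.19 to 0.18 without a cell, and -0.48 to 0.49 over the other settings. Without a plate, the genes past 2-fold in both gates numbered 205 to 270 higher and 360 to 598 lower, over all cells 718 to 779 and 852 to 1024.

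At a threshold of 600, Echdc2 turned to -1.18, Ice1 to -0.15 and Spp1 to -0.22, and Spp1 was -0.52 with the 25 brightest cells by rank within plates as high. The other integrin chains were -1.04 in the CD61- gate without P1CD61minus, with a range to 1.14 without another plate. With Eng as its 1 entered gene, the endothelial list was -0.24 in the CD61+ gate without P1CD61plus and 2.54 without P2CD61plus. In the CD61- gate it was -0.55 without P2CD61minus, 4.61 without P1CD61minus and -0.11 among CAR-like and osteolineage-like cells. The values of -0.24 and -0.55 were the same as medians with Pecam1, Eng and Vwf held. The cause of these reversals was not tested. No paired analysis was possible because the labels give no replicate numbers that link samples across classes. Each plate holds cells of both classes, and within-plate ratios are given as values. Of the alternative values of named genes, 2 changed sign from a main ratio of 2-fold or more. Of the rest, 459 differed from the main log2 ratio by less than its SD over the 4 plates, and 15 by more. That SD includes P2CD61minus with its 1 high cell and can be wide, so a value within it need not have kept its size or direction. One class of 25 cells and wells at 0 limit the precision of any ratio.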

Other observations

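The 9 cells of the VCAM1+ gate not split on CD61 were all under the CD51 threshold, at -6, 85 and 242 (lowest, median, highest), with Itgav at 0, 95.3 and 231 CPM. The 3 cells whose title and gate label disagree had CD51 intensities of 91, 55 and 664, CD45 intensities of 126, 127 and 781, and Itgav at 551, 0 and 14.8 CPM.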
